A study of Mus musculus with 2 samples.

Results

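The genes described here are the tumour suppressor p53 (Trp53) and 9 genes that it is known to switch on: Mdm2, Cdkn1a, Ccng1, Gadd45a, Zmat3, Sesn2, Bax, Pmaip1 and Fas. They were picked by name, and all 10 were among the 17891 genes of the deposited table. The cells were single cells of mouse corneal epithelium. The mice were 7 males of the strain C57BL/6J, aged 10 weeks, without genetic change, that had lost both lacrimal glands (extraorbital and intraorbital) on the right side. The dry eye library pooled the epithelium of 6 right eyes, after 1 injured eye was left out, and the control library pooled that of the 7 left eyes, whose glands were intact. Both came from the same animals, killed on day 9 after the operation, so the side of the eye goes with the treatment and the control eyes belong to operated animals.

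p53 is a transcription factor that is kept scarce by MDM2, a ligase that marks it for destruction and whose own gene p53 induces. After DNA damage and other stress p53 accumulates, mostly through its protein and not its mRNA, and its targets can stop the cell cycle, adapt metabolism or start apoptosis. The corneal epithelium is renewed from limbal stem cells through dividing transit amplifying cells, and its cells leave from the surface after terminal differentiation. The CDK inhibitor p21, made by Cdkn1a, is also induced without p53 when keratinocytes leave the cell cycle.

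The dry eye library held 16420 cells with 207030777 unique molecular identifiers (UMIs, counted molecules) and a median of 9086.5 per cell, and the control library 17465 cells with 191493194 UMIs and a median of 8248. A total of 74 cell barcodes occurred in both libraries. The authors gave each cell 1 of 13 class names, which are LSC, TAC1, TAC2, Basal, Wing, Squam, Conj and Immune, and the starred forms LSC*, TAC1*, TAC2*, Wing* and Squam*. No source used here says what the star stands for. Starred cells were 1793 in dry eye (10.9%) and 172 in control (0.985%), and no Squam* cell was in control. All 5 corneal epithelial markers were present in both libraries (Krt12, Pax6, Krt5, Aldh3a1 and Tkt, 36236 counts per 1000000 UMIs, CPM, in dry eye and 40204 in control). The 10 immune markers summed to 12.2 CPM in dry eye and 12.8 CPM in control. The 10 leading genes of LSC held limbal Gpha2 and Cd63, and those of Conj held conjunctival Krt4. S phase genes were among those of TAC1, G2/M genes among those of TAC2 and immune genes among those of Immune. The 6 limbal markers were not particular to LSC, with 17791 CPM in LSC and 16135 in Conj of dry eye (15472 and 16090 in control). The 6 conjunctival markers summed to 13145 CPM in Conj and 10657 in Squam of dry eye (10805 and 7273 in control). Neither Basal nor Squam had a listed marker among its 10 leading genes, and Wing had Dsg1a of the superficial list only, so for these the authors' names were taken as given. The 8 superficial markers summed to 2967 CPM in Squam and 2229 CPM in Wing of dry eye and to 1934 and 1563 CPM in the same classes of control, and to at most 164 CPM in LSC, TAC1, TAC2 and Basal of either library. Wing and Squam are called upper and the other 4 lower classes here. Immune held at most 6 UMIs of any of the 10 genes in a library and is left out of the statements on unstarred classes. With 1 library per group there was no replicate and no test. Ratios are therefore given with exact 95% Clopper-Pearson intervals that cover counting error only. A gene is called higher or lower where it had at least 50 UMIs in the compared sums, differed by at least 1.5-fold and had an interval without 1.

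Over all cells, Pmaip1 and Fas were higher in dry eye, and none of the other 8 genes passed 1.5-fold. Thus 2 of 10 were higher, where 7.64% of the 13997 genes with enough UMIs were higher, and 0 of 10 were lower, where 5.47% of all genes were lower. The median log2 ratio of the 10 genes was 0.18, beside -0.07 for all genes. Without starred cells the same 2 genes were higher and 0 lower, where 5.58% of 13830 genes were higher and 3.72% lower. A sum over a library cannot tell more RNA per cell apart from more cells of a class that holds the gene, so each gene is followed through the classes below. The plot of whole-library ratios shows each gene with all cells, without starred cells and at equal class shares.

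**Figure D1:**
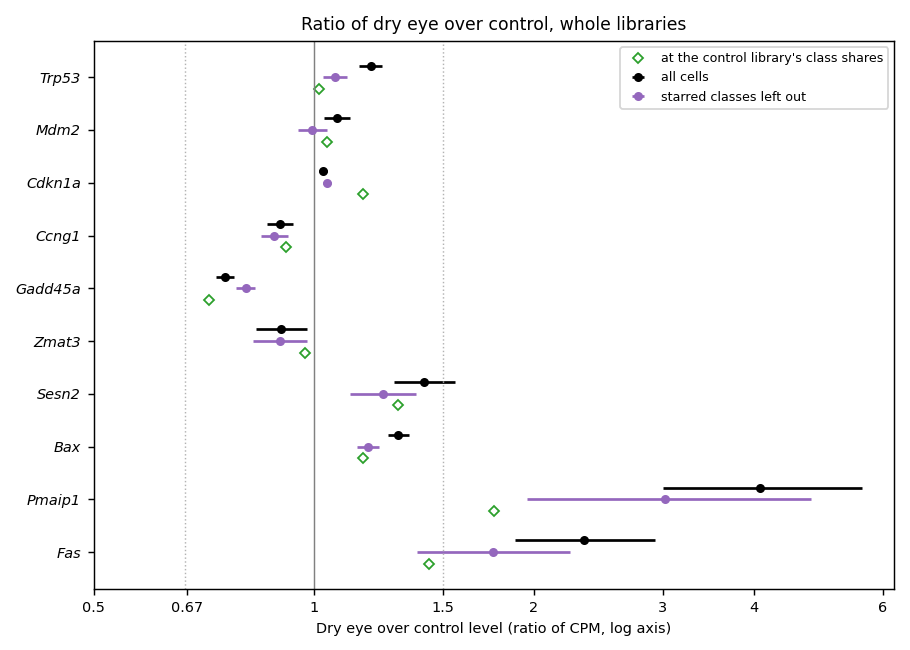
Ratio of dry eye over control level for the 10 genes over whole libraries, on a log axis. Black points are all cells and purple points the cells without starred classes, with 95% intervals from counting error, and open diamonds weight the dry eye classes to the shares of the control library. Dotted lines mark 1.5-fold in each direction. Pmaip1 (4.07) and Fas (2.34) lie past the line, and both lie nearer to 1 without starred cells (3.02 and 1.76).

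Trp53, on chromosome 11 at 69580359 to 69591873 (mouse build GRCm38, as all positions here), was a gene of the lower classes. In dry eye it had 78.8 CPM in TAC1, 68.6 in LSC, 61.6 in TAC2 and 56.6 in Basal, then 20 in Wing, 18.9 in Conj and 5.32 in Squam. In control the same classes had 79.0, 57.2, 52.6, 53.7, 21.6, 19.7 and 6.68 CPM. The steps from the lower classes to Wing and from Wing and Conj to Squam were past the counting intervals in both libraries. LSC overlapped with TAC1 and TAC2 in dry eye. In control it overlapped with Basal and TAC2 and lay below TAC1, with intervals apart. Over all cells Trp53 had 34.3 CPM in dry eye and 28.7 in control (ratio 1.20, 1.15 to 1.24). The ratio was 1.07 without starred cells and 1.02 at the class shares of the control library, and no class with enough cells passed 1.5-fold.

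Mdm2, at 117688875 to 117710758 on chromosome 10, varied less between unstarred classes than Trp53. Its level lay between 15.2 CPM in TAC1 and 26.1 in Wing in dry eye, and between 16.0 CPM in Squam and 24.7 in Wing in control. In both libraries the intervals of the lowest class and of Wing were apart. Over all cells it had 22.8 CPM in dry eye and 21.2 in control (ratio 1.08, 1.03 to 1.12), and 0.996 without starred cells. The high levels of Mdm2 were in LSC* (61.8 CPM) and Wing* (45.9 CPM) of the dry eye library.

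Cdkn1a, at 29090976 to 29100727 on chromosome 17, showed the reverse of the Trp53 pattern and marked the upper classes and Conj. In dry eye it reached 444 CPM in Wing, 311 in Squam and 219 in Conj, against 62.5 in TAC2, 40.1 in LSC, 22.1 in Basal and 17.6 in TAC1. In control it reached 397 CPM in Wing, 207 in Squam and 248 in Conj, against 54.2 in TAC2, 63.9 in LSC, 31.5 in Basal and 20.9 in TAC1. Wing alone stood above every other unstarred class in both libraries. The whole libraries differed little, with 257 CPM in dry eye and 249.9 in control (ratio 1.03, 1.02 to 1.04). The class mix of the libraries differed, and at the class shares of the control library the ratio was 1.17.

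Free RNA adds UMIs to all cells of a library and was not removed from the shares given here. Depth differed between classes and libraries, so the share of cells with a Cdkn1a UMI was taken after each cell was thinned to 3000 UMIs. Cells below that depth were left out, 784 in dry eye and 1094 in control. In Wing 65.3% of dry eye cells and 62.6% of control cells had a UMI (before thinning 89.6% in dry eye and 89.0% in control). In TAC1, the class with the lowest share, 4.85% of dry eye cells and 4.84% of control cells had one, which serves as the background because no class lacks the gene for certain. The median depth before thinning was 11815 UMIs in Wing and 8554 in TAC1 in dry eye, and 10706 in Wing and 7656.5 in TAC1 in control. The share in Squam was 42.0% in dry eye (40.2 to 43.8%) and 35.6% in control (33.9 to 37.4%). In LSC it was 5.12% in dry eye (3.34 to 7.47%), which cannot be told apart from the background, and 12.4% in control (8.05 to 18.1%). The share was also split by whether a cell had a UMI of the division genes Mki67 or Top2a. With such a UMI, 12.2% of dry eye and 11.0% of control TAC2 cells also had a Cdkn1a UMI, and without one 11.8% of dry eye and 14.9% of control cells did, with overlapping intervals. TAC1 of dry eye differed, with 10.5% of cells with such a UMI (5.99 to 16.7%) and 4.02% of those without (2.87 to 5.45%). In TAC1 of control the shares were 7.27% with and 4.52% without, and the intervals overlapped.

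Ccng1, which makes cyclin G1, lies at 40748552 to 40755311 on chromosome 11. It was spread more evenly than Trp53. Over the unstarred classes of dry eye it lay between 20.7 CPM in TAC1 and 26.4 in Wing, other than Squam, which had 12.0. In control it lay between 17.96 CPM in LSC and 30.3 in Wing, with 14.2 in Squam. Over all cells it had 22.9 CPM in dry eye and 25.4 in control (ratio 0.899, 0.864 to 0.936). No unstarred class passed 1.5-fold.

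Gadd45a, at 67035096 to 67037457 on chromosome 6, makes a stress protein linked to growth arrest and DNA repair. Among the unstarred classes it was highest in Squam, with 119 CPM there, 53.6 in Conj and 23.7 in Wing of dry eye, against 6.02 in TAC1, the lowest class. In control Squam had 194 CPM, Conj 45.1, Wing 22.2 and TAC1 7.68. Each step from Squam to Conj and from Conj to Wing was past the counting intervals in both libraries. Over all cells Gadd45a had 40.4 CPM in dry eye and 53.5 in control (ratio 0.756, 0.734 to 0.778), short of 1.5-fold. The 12 control cells of Wing* held 196 Gadd45a UMIs of 10241 in that library. They had only 193663 UMIs of all genes, so their Gadd45a level was above that of control Squam, from few cells.

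Zmat3, at 32334792 to 32366014 on chromosome 3, makes an RNA-binding protein. It was low, with 8.75 CPM in Wing and 8.07 in Conj of dry eye and 1.15 in Squam. Control had 9.27 CPM in Wing, 8.04 in Conj and 2.34 in Squam. Sesn2, at 132492032 to 132510501 on chromosome 4, makes sestrin 2, which restrains mTORC1 under nutrient stress and is induced by ATF4 as well as by p53. It had 5.15 CPM in dry eye and 3.63 in control over all cells (ratio 1.42, 1.29 to 1.56), and the ratio was 1.24 without starred cells. Its level in the dry eye library was highest in LSC* (30.9 CPM) and Wing* (13.5 CPM), both apart from every unstarred class.

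Bax, at 45461697 to 45466898 on chromosome 7, makes a protein that opens the outer mitochondrial membrane in apoptosis. It was high in the same classes as Trp53. In dry eye it had 88.9 CPM in Basal, 85.2 in TAC2, 81.01 in TAC1 and 71.0 in LSC, then 28.0 in Wing, 15.8 in Conj and 2.68 in Squam. Control had 78.2, 68.3, 75.5 and 78.5 CPM in these 4 lower classes, then 23.8, 13.8 and 2.40. The drop at Wing, at Conj and at Squam was past the counting intervals in both libraries. Over all cells Bax had 42.7 CPM in dry eye and 32.7 in control (ratio 1.31, 1.26 to 1.35), and 1.19 without starred cells. Of the 8 classes compared within, 7 had a Bax level above control by point estimate, but only TAC1* passed 1.5-fold.

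Pmaip1, at 66458533 to 66465565 on chromosome 18, makes NOXA, a BH3-only protein that blocks survival factors of the BCL2 family. It was scarce, with 229 UMIs in dry eye (1.11 CPM) and 52 in control (0.272 CPM), a ratio of 4.07 (3.00 to 5.62). Few cells carried it, 160 in dry eye and 31 in control. Starred cells held 147 of the 229 dry eye UMIs (64.2%), and LSC* had 26.6 CPM and Wing* 6.78 CPM. In the unstarred classes of dry eye the level stayed at or below 0.937 CPM. No class had enough UMIs to compare within it. Below the minimum, Wing had 32 UMIs in dry eye and 1 in control (43.0, 7.18 to 1751), and TAC2 had 12 in dry eye and 1 in control (8.33, 1.23 to 356). Squam had 27 UMIs in dry eye and 19 in control (1.41, 0.758 to 2.69), with an interval that holds 1. In control the 12 Wing* cells held 23 of the 52 UMIs, 9 of these cells having at least 1, and the 20 Immune cells held 4. The Wing* and Immune cells of control had only 193663 and 35442 UMIs of all genes. By point estimate their Pmaip1 levels were thus above that of LSC* in dry eye, from few cells. Over all cells the ratio was 2.37 as a mean over cells, 1.76 at the class shares of the control library and 8.10 once the top 10 cells for Pmaip1 in each library were dropped, which held 19.7% of the UMIs in dry eye and 59.6% in control.

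Fas, at 34290666 to 34327772 on chromosome 19, makes a death receptor. It had 296 UMIs in dry eye (1.43 CPM) and 117 in control (0.611 CPM), a ratio of 2.34 (1.88 to 2.92). The highest unstarred class was LSC in both libraries, with 8.90 CPM in dry eye and 4.66 in control, and in dry eye TAC2* (6.86 CPM) and TAC1* (6.22 CPM) were close to it. Starred cells held 110 of the 296 dry eye UMIs (37.2%). The ratio was 1.76 without starred cells, and at the class shares of the control library it was 1.44, which ends the call. With an upper bound for free RNA, taken from the class with the fewest UMIs of the gene per cell, subtracted it was 4.50. Its ligand gene Fasl, with 4 UMIs in dry eye and 0 in control, was too rare to compare.

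**Figure D2:**
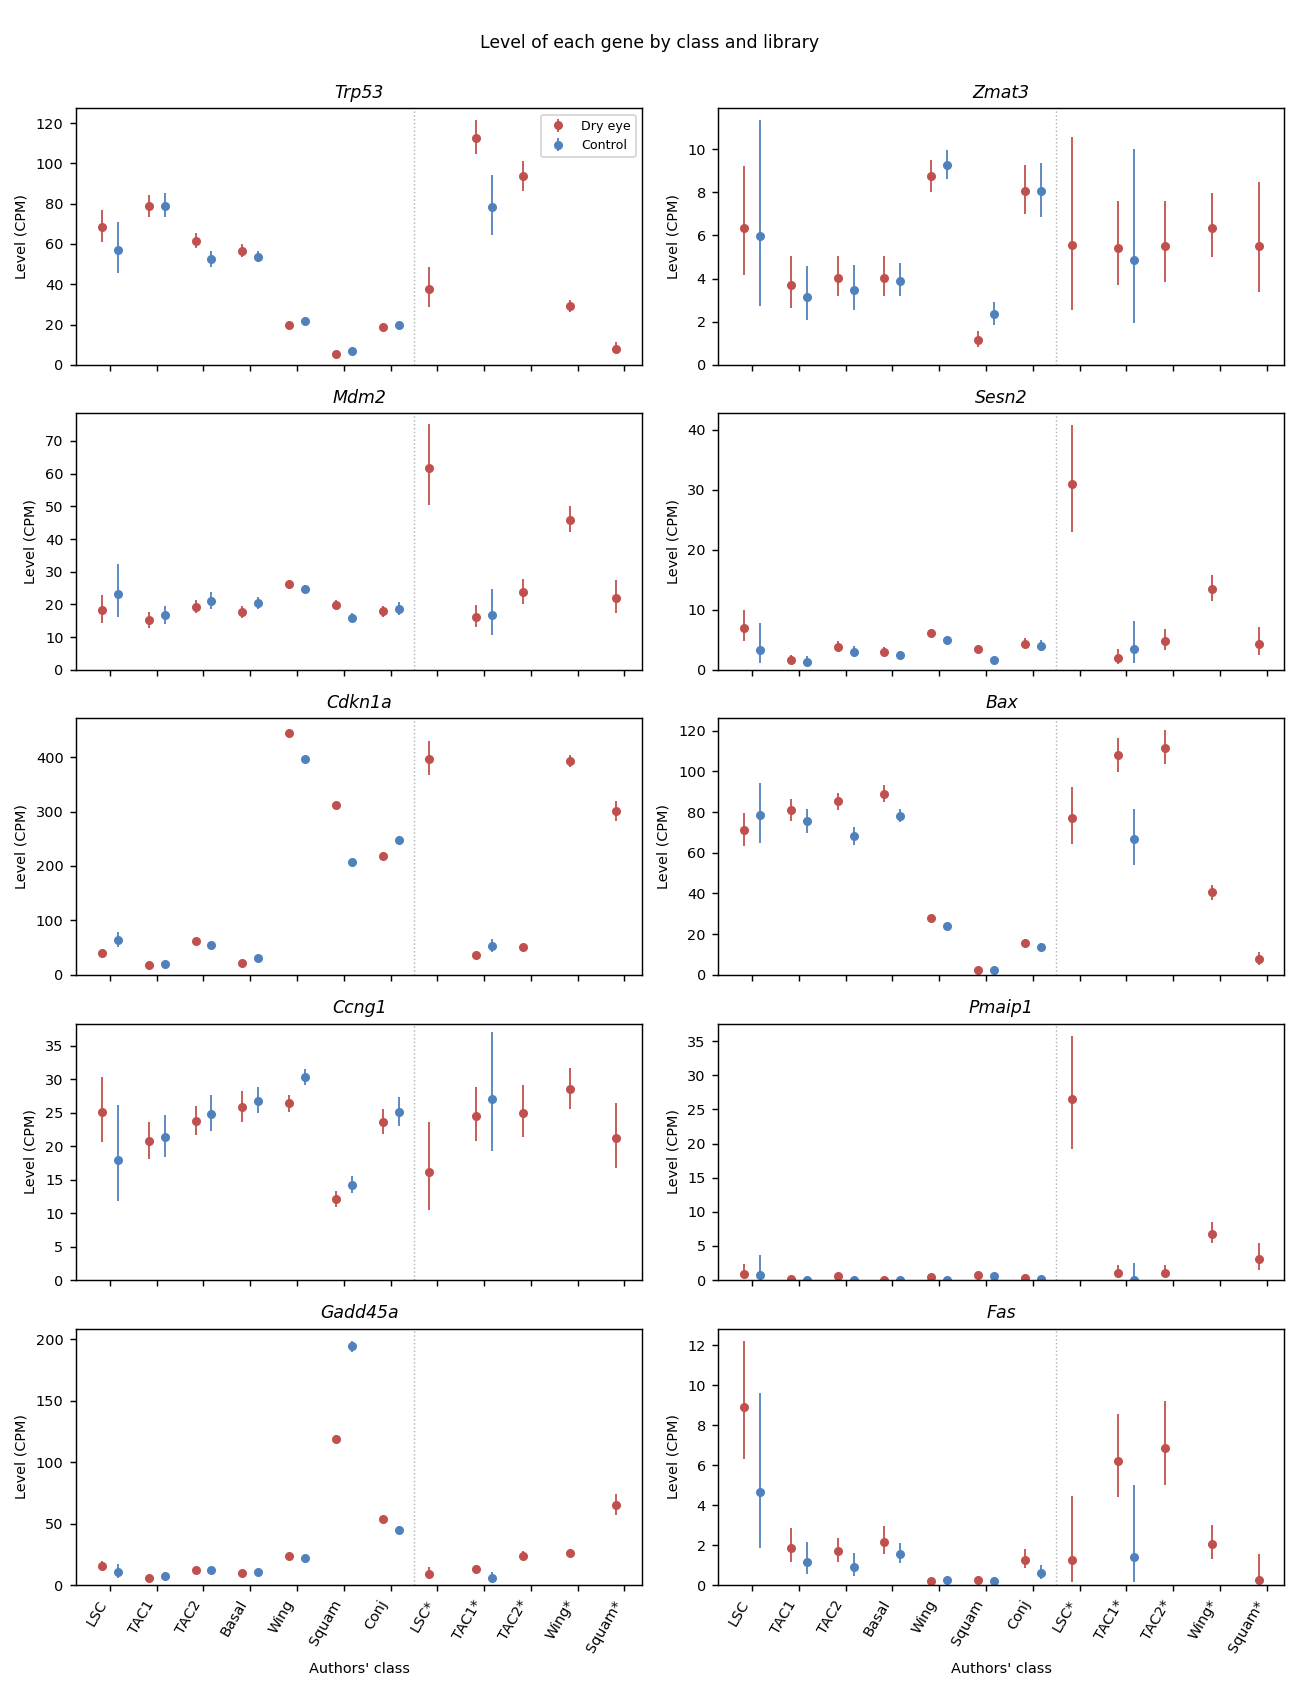
Level in CPM (linear axes from 0) of each gene in each class of the authors, dry eye in red and control in blue, with exact Poisson 95% intervals. Classes under 80 cells in a library, which include all starred control classes but TAC1*, and the Immune class are not drawn, and a dotted line separates starred classes. Trp53 and Bax are high in LSC, TAC1, TAC2 and Basal, Cdkn1a is high in Wing, Squam and Conj, and Pmaip1 stands out in LSC* (26.6 CPM).

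**Figure D3:**
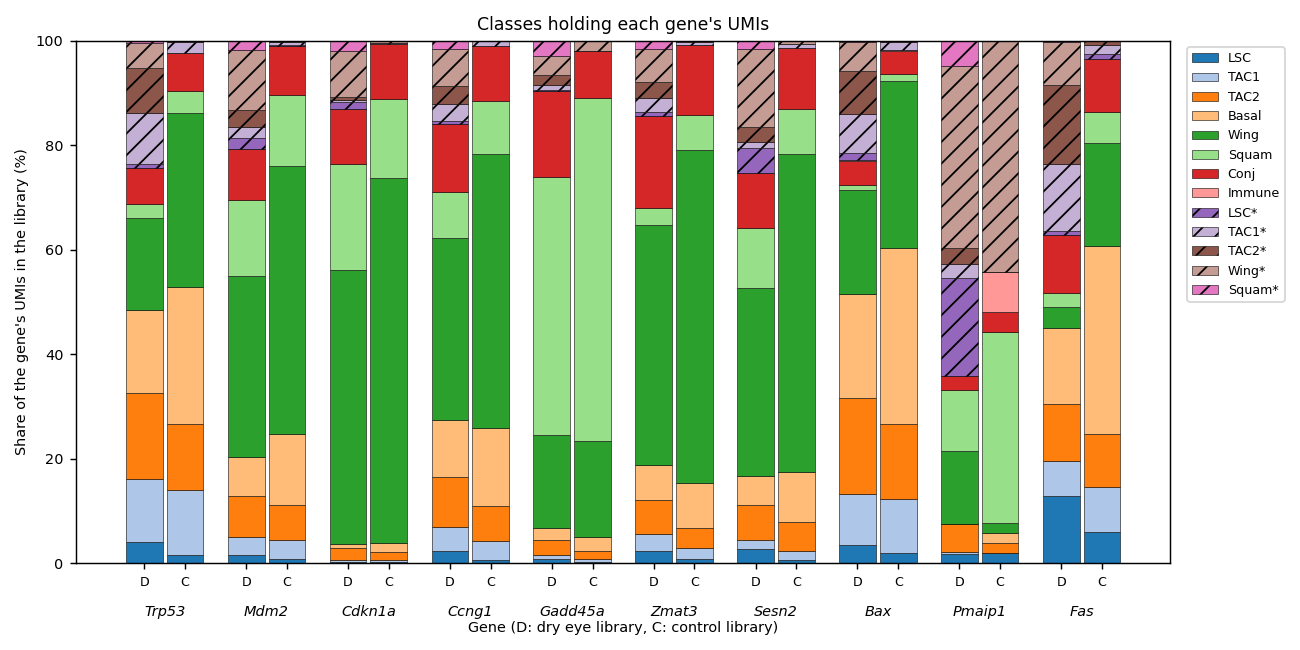
Share of each gene's UMIs, in percent, that each class held in the dry eye (D) and control (C) libraries, with starred classes hatched. Starred classes held 64.2% of the dry eye UMIs of Pmaip1 and 37.2% of those of Fas.

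p53 binds DNA through pairs of a 10-base consensus, here called the p53 decamer, which is its own reverse complement so that a search covers both strands. It was searched in RefSeq windows (GRCm38.p6) of 250 bases before to 50 after each start. Of the 10 genes 8 had a window, and Cdkn1a had 2, which gives 9 windows. The decamer occurred in 6 of 9, beside 8.36% of 32851 windows of the same length. A full site, a pair of adjoining decamers of 20 bases with at most 1 mismatch, occurred in 2 of 9, beside 0.0883% of all windows (29). The 2 windows with a full site are shown because they belong to targets with different patterns here, Cdkn1a high in Wing and Ccng1 even over most classes, and the Mdm2 window shows a lone decamer in the gene that feeds back on p53. Capitals mark the matches, each line reads 5′ to 3′ on the strand of the gene, and the positions are chr17:29090729-29091028 on the plus strand, and chr11:40755237-40755536 and chr10:117710709-117711008 on the minus strand.
Cdkn1a: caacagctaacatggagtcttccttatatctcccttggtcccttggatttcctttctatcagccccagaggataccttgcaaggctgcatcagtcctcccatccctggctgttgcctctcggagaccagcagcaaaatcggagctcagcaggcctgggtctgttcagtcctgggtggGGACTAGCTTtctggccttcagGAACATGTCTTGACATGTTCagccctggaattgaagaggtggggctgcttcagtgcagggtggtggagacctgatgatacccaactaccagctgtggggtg
Ccng1: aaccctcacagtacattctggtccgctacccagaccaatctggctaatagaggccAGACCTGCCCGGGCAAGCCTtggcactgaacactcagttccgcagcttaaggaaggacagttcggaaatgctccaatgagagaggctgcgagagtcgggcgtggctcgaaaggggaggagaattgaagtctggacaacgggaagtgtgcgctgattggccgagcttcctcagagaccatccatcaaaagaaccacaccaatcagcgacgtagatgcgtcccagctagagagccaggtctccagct
Mdm2: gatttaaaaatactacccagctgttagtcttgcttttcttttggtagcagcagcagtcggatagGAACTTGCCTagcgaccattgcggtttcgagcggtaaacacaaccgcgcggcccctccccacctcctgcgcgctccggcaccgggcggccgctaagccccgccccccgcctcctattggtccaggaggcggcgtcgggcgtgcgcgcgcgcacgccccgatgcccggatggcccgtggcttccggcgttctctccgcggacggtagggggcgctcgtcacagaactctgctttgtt
In the Cdkn1a window shown the full site begins at -51 from the start of that window's transcript, and a further decamer lies before it. The other Cdkn1a window, at chr17:29093519-29093818, held no decamer and no full site. In the Ccng1 window the full site begins at -195, and the Mdm2 decamer begins at -186. These are matches of letters, and binding was not measured.

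Within classes, dry eye was compared with control in the 8 classes with at least 100 cells in each library. Of 80 pairs of gene and class 60 had enough UMIs, and 4 were higher and 3 lower. Among all genes, the share higher ran from 1.91% in TAC1 to 11.9% in TAC1*. The share lower ran from 1.32% in Conj to 13.6% in Squam. Of the 7 calls of members, 4 fell in Squam. There 3.65% of 9902 genes were higher and 13.6% lower, and the median gene had a log2 ratio of -0.20. Cdkn1a in Squam had 311 CPM in dry eye and 207 in control (ratio 1.503, 1.46 to 1.55). Sesn2 in Squam had 3.54 CPM in dry eye and 1.73 in control (2.04, 1.49 to 2.83), a low level that leaves the size of the ratio uncertain (44.95 with the free RNA bound subtracted). Against these, Gadd45a in Squam was lower, with 119 CPM in dry eye and 194 in control (0.612, 0.588 to 0.636). Zmat3 in Squam was lower too, from 40 UMIs in dry eye and 81 in control (0.492, 0.328 to 0.727). The calls of Cdkn1a and Gadd45a lie close to the 1.5-fold line: Cdkn1a was at 1.45 as a mean over cells, and Gadd45a at 0.697 after TMM scaling. Over the alternatives tried Cdkn1a ranged from 1.45 to 1.72 and Gadd45a from 0.583 to 0.701. The 8 superficial markers summed to 2967 CPM in dry eye Squam and 1934 CPM in control Squam, all 8 present in both, and their part in these differences was not tested.

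In LSC, where 2.41% of genes were higher and 5.84% lower, Cdkn1a was lower, with 40.1 CPM in dry eye and 63.9 in control (0.627, 0.486 to 0.814, and 0.346 as a mean over cells). The superficial markers summed to 84.8 CPM in dry eye LSC and 164 CPM in control LSC, with 8 of 8 and 6 of 8 present, and their part in this was not tested. The remaining 2 calls were in TAC1*, with 473 cells in dry eye and 133 in control, where 11.9% of genes were higher and 12.2% lower. Bax had 108 CPM in dry eye TAC1* and 66.6 in control TAC1* (1.62, 1.31 to 2.03). Gadd45a had 13.4 CPM from 82 UMIs in dry eye and 5.55 CPM from 8 UMIs in control (2.42, 1.17 to 5.79). Trp53, at 113 CPM in dry eye TAC1* and 78.4 in control TAC1*, stayed short of 1.5-fold (1.44, 1.18 to 1.77). The 6 limbal markers summed to 8293 CPM in dry eye TAC1* and 1351 CPM in control TAC1*, and their part was not tested. No member was called in TAC1 (1.91% of all genes higher, 1.76% lower), TAC2 (2.85% and 3.78%), Basal (1.95% and 2.07%), Wing (4.72% and 5.81%) or Conj (2.41% and 1.32%).

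**Figure D4:**
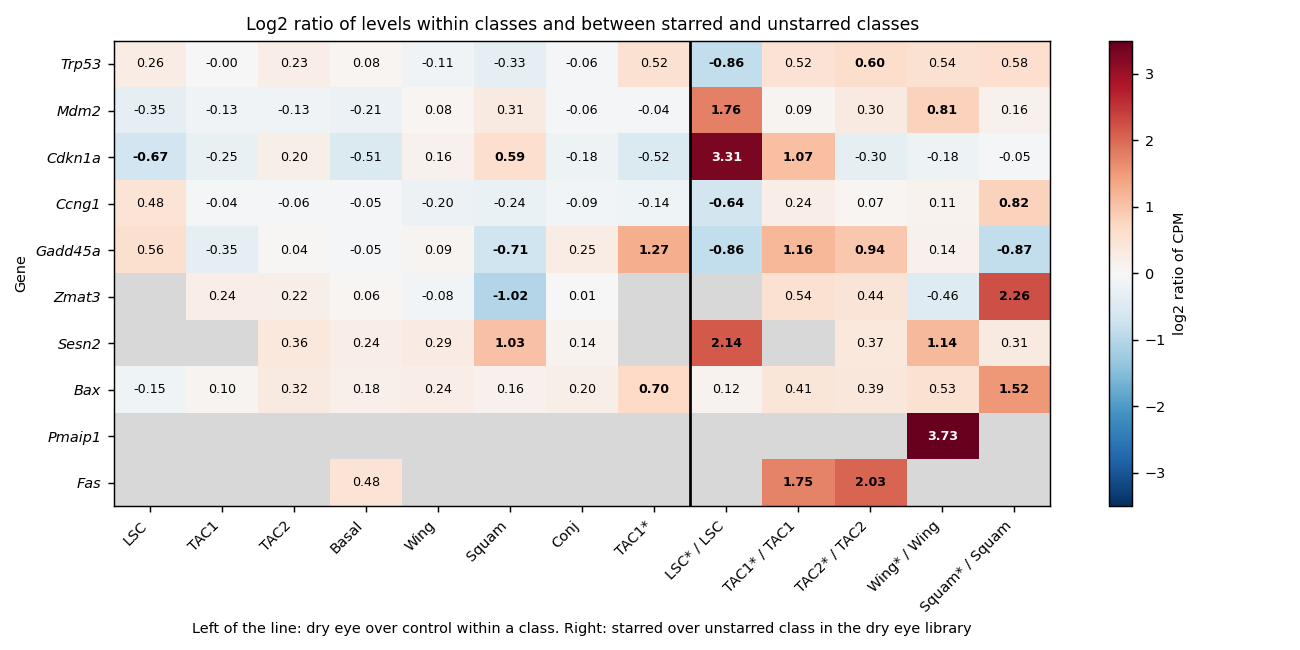
Log2 ratio of CPM for each gene, red higher and blue lower, in dry eye over control within each class (left of the line) and in the starred over the unstarred class of the dry eye library (right). Bold values passed 1.5-fold with an interval without 1, and grey cells had under 50 UMIs. Calls on the left are in LSC, Squam and TAC1*, and the largest values on the right are Pmaip1 in Wing* (3.73) and Cdkn1a in LSC* (3.31).

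The starred classes were compared with their unstarred namesakes inside the dry eye library, so that both sums come from the same pooled eyes. The classes may have been drawn from these same counts, so the ratios describe the authors' classes. Starred dry eye cells had a median of 11905 UMIs and unstarred cells one of 8780. Of 50 pairs 41 had enough UMIs, 15 being higher and 4 lower in the starred class. Among all genes, the share higher ran from 8.26% in TAC2* to 28.1% in Squam*. The share lower ran from 7.73% in Squam* to 29.5% in LSC*.

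LSC* departed most, with 85 cells. Cdkn1a had 397 CPM in LSC* and 40.1 in LSC (9.91, 8.36 to 11.8), and its interval in LSC* overlapped that in Wing* (393 CPM). Mdm2 had 61.8 CPM in LSC* and 18.3 in LSC (3.38, 2.49 to 4.61), and Sesn2 had 30.9 CPM in LSC* and 7.03 in LSC (4.40, 2.74 to 7.16). Trp53 itself was lower, with 37.7 CPM in LSC* and 68.6 in LSC (0.549, 0.410 to 0.726). Ccng1 (0.641, 0.401 to 0.992) and Gadd45a (0.551, 0.286 to 0.991) were lower with bounds near 1, and neither call held after TMM scaling (0.726 and 0.625). Thus 3 of 7 measured genes were higher, where 18.6% of all genes were higher, and 3 were lower, where 29.5% were lower. Pmaip1, with 43 UMIs in LSC* and 4 in LSC, fell under the UMI minimum (28.4, 10.3 to 109). After thinning, 65.0% of LSC* cells had a Cdkn1a UMI (53.5 to 75.3%) and 5.12% of LSC cells. LSC* also held markers of other classes and of stress. The 8 superficial markers summed to 1796 CPM in LSC* and 84.8 CPM in LSC, the 6 limbal ones to 20278 CPM in LSC* and 17791 CPM in LSC, and 10 of 16 dissociation stress genes were higher in LSC* (median log2 ratio 1.08, all genes -0.23). Their part in the LSC* values was not tested.

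Pmaip1 was higher in Wing* of dry eye, with 6.78 CPM from 80 UMIs, against 0.510 CPM from 32 UMIs in Wing (13.3, 8.72 to 20.7). Mdm2 had 45.9 CPM in Wing* and 26.1 in Wing (1.76, 1.59 to 1.94), and Sesn2 had 13.5 CPM in Wing* and 6.12 in Wing (2.20, 1.82 to 2.66). Cdkn1a did not share this, with 393 CPM in Wing* and 444 in Wing (0.885, 0.858 to 0.913). In total 3 of 9 measured genes were higher and 0 lower, where 12% and 13.8% of all genes were. The superficial markers summed to 7208 CPM in Wing* and 2229 CPM in Wing, and the limbal ones to 12744 CPM in Wing* and 4649 CPM in Wing. Of the 16 dissociation stress genes 5 were higher in Wing* and 0 lower (median log2 ratio 0.54, all genes -0.06), and the part of all 3 lists was not tested.

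TAC1* and TAC2* shared a higher Fas and Gadd45a. Fas had 6.22 CPM in TAC1* and 1.85 in TAC1 (3.36, 1.91 to 6.09), and 6.86 CPM in TAC2* and 1.68 in TAC2 (4.08, 2.54 to 6.64). Gadd45a had 13.4 CPM in TAC1* and 6.02 in TAC1 (2.23, 1.59 to 3.14), and 23.8 CPM in TAC2* and 12.4 in TAC2 (1.92, 1.56 to 2.36). Both genes were low, and the counts were from 20 to 45 UMIs per class for Fas. The limbal markers summed to 8293 CPM in TAC1* and 2190 CPM in TAC1, and to 10439 CPM in TAC2* and 3963 CPM in TAC2. LSC had the most Fas of the unstarred classes, and the limbal sum was about as high in Conj as in LSC. The G2/M markers summed to 1393 CPM in TAC2* and 4880 CPM in TAC2, and the part of both lists was not tested. Cdkn1a was called in TAC1*, with 36.8 CPM there and 17.6 in TAC1 (2.09, 1.72 to 2.55), and not in TAC2*, with 50.6 CPM there and 62.5 in TAC2 (0.811, 0.716 to 0.916), and the difference between these ratios was not tested. Trp53 had 93.6 CPM in TAC2* and 61.6 in TAC2 (1.52, 1.38 to 1.68). The shares of all genes higher and lower were 9.84% and 9.08% in TAC1*, with 3 of 8 members higher and 0 lower, and 8.26% and 16.8% in TAC2*, with 3 of 9 higher and 0 lower. The control library had enough TAC1* cells for the same ratio (a comparison chosen after the data were seen, with 3.27% of genes higher and 1.4% lower). There Cdkn1a had 52.7 CPM in TAC1* and 20.9 in TAC1 (2.52, 1.90 to 3.31), while Gadd45a had 5.55 CPM in TAC1* and 7.68 in TAC1 (0.722, 0.299 to 1.51).

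Squam* had 4 called genes of 8. Bax had 7.69 CPM in Squam* and 2.68 in Squam (2.88, 1.81 to 4.43). Zmat3 had 5.50 CPM in Squam* and 1.15 in Squam (4.78, 2.64 to 8.36), and Ccng1 had 21.2 CPM in Squam* and 12.0 in Squam (1.76, 1.36 to 2.25). All 3 had in Squam their lowest level among the unstarred dry eye classes other than Immune. Gadd45a went the other way, with 65.1 CPM in Squam* and 119 in Squam (0.548, 0.479 to 0.625). Here 28.1% of all genes were higher and 7.73% lower, with a median log2 ratio of 0.31, and Ccng1 fell short of 1.5-fold after TMM scaling (1.43). The superficial markers summed to 4790 CPM in Squam* and 2967 CPM in Squam, and the limbal ones to 11399 CPM in Squam* and 3391 CPM in Squam, and their part was not tested.

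Related genes were counted over all cells beside the same shares of all genes, 7.64% higher and 5.47% lower, and most of their calls were higher. Of 38 measured further p53 targets, 2 were higher and 2 lower (median log2 ratio -0.01). The higher ones were Sulf2 (1.93, 1.47 to 2.57) and Ptp4a3 (1.54, 1.35 to 1.75), and the lower ones Trp53inp1 (0.584, 0.543 to 0.629), which makes a p53 cofactor in stress, and the thiamine transporter gene Slc19a2 (0.639, 0.617 to 0.662). Gtse1 was at 1.46 and Triap1 at 0.694. Without starred cells Ptp4a3 (1.21) and Slc19a2 (0.667) lost their calls. Of 21 regulators and relatives of p53, 2 were higher and 0 lower (median -0.09). They were the p53 relative Trp73 (1.85, 1.41 to 2.45) and the checkpoint kinase gene Chek1 (1.61, 1.46 to 1.79), which was at 1.31 without starred cells and lost its call. Trp53bp2 was at 1.18, and the ligase genes Cop1 (0.828) and Rchy1 (0.808) and the p53-binding Ppp1r13b (0.759) were the lowest.

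Of 16 measured BCL2 family genes, 1 was higher and 1 lower (median -0.14). Bnip3, whose protein acts in mitophagy and is induced by hypoxia, had 1110 UMIs in dry eye and 79 in control (12.996, 10.3 to 16.5), and 6.72 without starred cells. Bmf, a BH3-only gene, had 196 UMIs in dry eye and 387 in control (0.468, 0.392 to 0.558). The apoptosis effectors Bak1 (1.27) and Bok (1.24), the BH3-only gene Bik (0.740) and the brake Bcl2 (0.807) stayed short of 1.5-fold.

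Of 24 caspase and apoptosome genes, 5 were higher and 0 lower (median 0.02), against 7.64% and 5.47% of all genes, and without starred cells 3 of 23 were higher, against 5.58%. Casp4 had 81 UMIs in dry eye and 7 in control (10.7, 4.96 to 27.5), Casp12 had 209 in dry eye and 22 in control (8.79, 5.65 to 14.3), and Casp1 had 120 in dry eye and 61 in control (1.82, 1.33 to 2.52). Without starred cells Casp4 was at 4.58, Casp12 at 4.47 and Casp1 at 1.75. These 3 are inflammatory caspases in the usual grouping and not executioners of apoptosis. The others were the inhibitor of apoptosis genes Birc3 (1.62, 1.48 to 1.78), at 1.43 without starred cells, and Birc5 (1.57, 1.53 to 1.62), and Birc5 also acts in mitosis. Casp9 (0.758), Birc2 (0.777) and Dffa (0.823) stayed short of the fold. Casp1 and Birc3 were named after their values were seen, as were Tnfrsf1a, Slc7a11, Atf3 and Fasl.

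In the death receptor pathway 4 of 14 measured genes were higher and 0 lower (median 0.13), against 7.64% and 5.47% of all genes, and 2 of 14 were higher without starred cells, against 5.58%. They were the necroptosis kinase gene Ripk3, with 1609 UMIs in dry eye and 464 in control (3.21, 2.89 to 3.56), and the receptor genes Tnfrsf12a (2.49, 2.38 to 2.60), Tnfrsf21 (1.58, 1.53 to 1.63) and Tnfrsf1a (1.56, 1.52 to 1.60). Without starred cells the ratios of Ripk3 and Tnfrsf12a were 2.31 and 2.07, while Tnfrsf21 (1.49) and Tnfrsf1a (1.37) lost their calls. Tnfrsf10b (0.845), Cflar (0.863) and Faim2 (1.12) stayed short of the fold. In TAC1* over TAC1 of dry eye 5 of 12 genes of this list were higher and 0 lower, where 9.84% and 9.08% of all genes were, and Ripk3 was at 2.67 there.

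Of 7 further genes grouped by their names as CDK inhibitors 1 was higher over all cells and 0 lower (median -0.16). The higher one was Cdkn3 (1.52, 1.45 to 1.60, and short of the fold without starred cells). Cdkn2d was at 1.07 and Cdkn2a at 0.843, and Cdkn1b (0.835), Cdkn1c (0.857) and Cdkn2b (0.897) were short of the fold. In TAC2* over TAC2 all 7 were lower, where 16.8% of all genes were (median -1.49, all genes -0.11), for example Cdkn1b, which makes p27, at 0.443 and Cdkn3 at 0.315. Cdkn1a was at 0.811 in this comparison. The lower G2/M markers of TAC2* given above stand beside this too. Of 8 measured relatives of Gadd45a, Sesn2, Ccng1 and Zmat3, 1 was higher, Ccng2, with 9400 UMIs in dry eye and 5606 in control (1.55), and 1 lower, Zmat1 (0.595, 0.444 to 0.792), with a median of -0.07. Gadd45b was at 0.684 and Sesn1 at 0.756, short of the fold, and Ccni and Gadd45g were at 1.13 and 1.12. Sesn1 was lower in LSC* (0.153), TAC1* (0.338), TAC2* (0.285) and Wing* (0.486) over their namesakes, where Sesn2 was higher in LSC* and Wing*.

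Genes of the integrated stress response, which also induces Sesn2 through ATF4, were set beside the p53 targets. Over all cells 4 of 15 were higher and 0 lower (median 0.27), against 7.64% and 5.47% of all genes: Nupr1, with 6106 UMIs in dry eye and 1467 in control (3.85, 3.64 to 4.08), Asns (2.85, 2.66 to 3.05), Slc7a11 (1.71, 1.04 to 2.87) and Cebpb (1.53, 1.496 to 1.56). Trib3 (1.03), Ddit3 (0.849) and Vldlr (0.762) stayed short of the fold. Without starred cells Cebpb was at 1.29 and lost its call, while Atf3 was at 1.76, against 1.09 over all cells. The count without starred cells was again 4 of 15 higher and 0 lower (median 0.36), against 5.58% and 3.72% of all genes. In LSC* over LSC 6 of 10 were higher and 2 lower, where 18.6% and 29.5% of all genes were. In Wing* over Wing 7 of 13 were higher and 1 lower, where 12% and 13.8% of all genes were. The other starred classes had calls too. In TAC1* over TAC1 5 of 10 were higher and 1 lower, beside 9.84% and 9.08% of all genes. In TAC2* over TAC2 3 of 12 were higher and 2 lower, beside 8.26% and 16.8% of all genes. In Squam* over Squam 6 of 11 were higher and 0 lower, beside 28.1% and 7.73% of all genes. Sesn2 was at 1.29 in TAC2* (0.823 to 1.98) and 1.24 in Squam* (0.689 to 2.10), and under the UMI minimum in TAC1*. Whether this list and Sesn2 go together was not tested. Of 16 dissociation stress genes, 2 were higher over all cells, Fosb (1.91, 1.80 to 2.04) and Ier3 (1.57, 1.55 to 1.60), and 0 lower (median 0.08). Hspa8 was at 1.48, Zfp36 at 0.888, Hspa1b at 0.894 and Hspa1a at 0.6996.

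Across the 19 sums of a class and library with at least 100 cells, the patterns of the members were set against 9506 genes by Pearson's r of log2(CPM + 1). These sums share 2 libraries, so r is a description. Trp53 was most like Nop56 (0.995), Gart and Apex1 (both 0.994), and Bax most like Snrpd2 (0.994), Plek2 and Pfdn2 (both 0.993), and r between Trp53 and Bax was 0.970. Cdkn1a was most like Map3k6 (0.972), Ephx3 (0.964) and Tmcc3 (0.961). Gadd45a was most like Lratd1 (0.979), Arrdc4 (0.968) and Ube2v1 (0.965), and Pmaip1 most like S100a9 (0.938), Tmprss11g (0.925) and Dmkn (0.923). LSC*, with 85 cells, was not among these sums. In the sums used Pmaip1 had 6.78 CPM in Wing* and 3.02 in Squam* of dry eye and at most 1.07 elsewhere. Its r values therefore rest mostly on Wing* and Squam*. Fas was most like Smo (0.937), Dlk2 (0.929) and Kcnh1 (0.925). The highest r of the other members was lower: Ccng1 with Prpsap2 (0.927), Tfg and Vapb, Zmat3 with Cltc (0.927), Dnajc3 and Ccnjl, Mdm2 with Spryd7 (0.888), Fbxo11 and Rab24, and Sesn2 with Ubxn4 (0.855), Rab24 and Dync1li1. After Trp53 and Bax, the pairs of members with the highest r were Mdm2 with Sesn2 (0.811), Trp53 with Fas (0.746) and Cdkn1a with Gadd45a (0.736).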

How the data were processed

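Per the labels' protocols, the libraries were made with the Chromium 3′ kit v3.1 of 10x Genomics. The submitters' processing notes list Cell Ranger 6.0.1, Seurat 4 and the build mm10. The deposited table holds raw UMI counts per gene and cell, with 0 values below 0 and 0 not whole. The authors also deposited each cell's library and class. The filters on cells and the way classes were drawn are not given in the sources used here.

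Counts were summed per library and class (Python 3.11.15, pandas 2.3.3) and divided by the total to give CPM. Levels have exact Poisson intervals, ratios and shares exact Clopper-Pearson intervals. These and the limit that a count of 0 allows (3 counts) cover counting error only. The calculation was tested on simulated data. Classes needed 100 cells in each library, starred classes 80. Genes were placed by the GENCODE annotation of the same build. Free RNA was not removed and no doublet caller was run. Alternatives were the TMM factors of edgeR 4.0.16, the size factors of DESeq2 1.42.0 (R 4.3.3), other folds and UMI minimums, means over cells, a free RNA bound and left-out cells. The members and lists were chosen with earlier results of these data known. Named genes are all members, the 3 highest and 3 lowest ratios of each list by the interval bound nearest to 1, and the 3 genes most like each member among those with at least 1000 UMIs, without predicted, mitochondrial and ribosomal protein genes. Hrk and Zmat4 were not analysed here.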

Additional observations from a re-analysis of the deposited data

Results flagged for a closer look

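Genes that were called higher in dry eye in one class and lower in another, or higher in one starred class and lower in another, are listed here, and none of these differences between classes was tested. Cdkn1a was at 1.503 in Squam and 0.627 in LSC, dry eye over control. Gadd45a was at 2.42 in TAC1* and 0.612 in Squam. Between starred and unstarred classes of dry eye, Trp53 was at 1.52 in TAC2* over TAC2 and 0.549 in LSC* over LSC. Ccng1 was at 1.76 in Squam* over Squam and 0.641 in LSC* over LSC. Gadd45a was at 2.23 in TAC1* over TAC1 and 1.92 in TAC2* over TAC2, against 0.551 in LSC* over LSC and 0.548 in Squam* over Squam.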

How the results depend on the processing

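No paired analysis was possible because each group was 1 pooled library. Over all cells, the 2 genes called higher became 1 at the class shares of the control library, 4 with the less strict fold tried and 0 with at least 500 UMIs, and the count called lower became 1 with that fold. Within classes, the 4 pairs called higher became 2 with a fold of 2, 7 with at least 20 UMIs, 2 with at least 500 and 8 with no UMI minimum. The 3 called lower became 6 with the less strict fold, 1 with a fold of 2 and 1 with at least 500 UMIs. Between starred and unstarred classes, the 15 called higher became 4 with at least 500 UMIs. The 4 called lower became 2 under TMM scaling, 2 under median-of-ratios scaling, 2 with the free RNA bound subtracted (which left 30 of 41 pairs with enough UMIs), 0 with a fold of 2 and 1 with at least 500 UMIs. A stricter fold or minimum leaves fewer pairs by construction, and for the others the cause was not tested. Ccng1 in LSC* over LSC turned to 2.20 with the free RNA bound subtracted, and that cause was not tested. The other called ratios kept their direction under every alternative that gave a value, but not their size. As a mean over cells Cdkn1a in LSC* over LSC moved to 20.6, Mdm2 there to 5.50, Pmaip1 in Wing* over Wing to 22.2 and Zmat3 in Squam* over Squam to 7.44. With the free RNA bound subtracted Cdkn1a in LSC* over LSC moved to 23.2, Sesn2 there to 8.002, Gadd45a there to 0.864 and Gadd45a in TAC2* over TAC2 to 3.19. Without the 5% of cells with the most UMIs Pmaip1 in Wing* over Wing moved to 26.7. Cdkn1a in Squam was at 1.45 as a mean over cells and at 1.47 without the 5% of cells with the most UMIs. Its highest value over the alternatives was 1.72. Gadd45a in LSC* over LSC also lost its call as a mean over cells (0.749). Depth limits Pmaip1 and Fas most: in unstarred classes their sums within 1 library were at most 43 UMIs. Thinned to 1500 UMIs, 27.5% of Squam cells in dry eye and 22.5% in control had a Cdkn1a UMI.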
